A study of Mus musculus with 24 samples.

Results

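The comparison described here is that of EDL muscles (extensor digitorum longus, a fast-twitch muscle of the lower leg) from Cre+ and Cre- mice after 5.5 days of doxycycline (Dox). Its members are the 2 Cre+ and the 2 Cre- EDL libraries of that day, 4 of the 24 libraries in the series, and they were chosen by muscle, genotype and time point alone. The other libraries come from EDL at 2.5 and 8.5 days and from the slow-twitch soleus (SOL) at all 3 time points. Cre+ stands for Acta1-Cre+/4Fhet and Cre- for Acta1-Cre-/4Fhet. All mice were 2 months old and drank water with 1 mg/ml Dox, and all carried 1 copy of the tetO-4F cassette in Col1a1 and 1 copy of a loxP-STOP-loxP rtTA allele in ROSA26. Only Cre+ mice have the Cre transgene, whose Acta1 promoter is active in myofibers, so that rtTA, and with Dox the cassette, is switched on, by design, in myofibers and not in the other cells of the muscle. RNA came from the whole muscle. The series' design text states that the day 5.5 samples were treated as outliers and left out downstream, and the methods give absence of OSKM overexpression as the criterion for leaving a sample out.

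The cassette encodes Oct4 (Pou5f1), Sox2, Klf4 and Myc, together called OSKM, the transcription factors that turn somatic cells into pluripotent cells when expressed long enough. Oct4 and Sox2 bind DNA together and are silent in adult muscle, whereas Klf4 and Myc are also expressed by many adult cells. Myc binds the E-box motif and is known for driving genes of growth and ribosome production, and Klf4 binds GC-rich boxes in promoters. Short induction in myofibers is studied as partial reprogramming, in which gene expression shifts without the loss of cell identity.

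The 2 Cre+ libraries of 5.5 days differed widely in OSKM. Pou5f1 (chromosome 17, 35506032 to 35510777, GRCm38) had 2 and 0 counts in the Cre- libraries, 64 counts in Cre+ replicate 1 and 1686 counts in Cre+ replicate 2, or 0.0315, 0, 1.07 and 29.4 FPKM. FPKM here are counts scaled to exon length in kilobases and to library size after TMM scaling. Against the 2 Cre- counts, the ratio was 60.6 in Cre+ replicate 1 (95% counting interval 16.1 to 511) and 1658 in Cre+ replicate 2 (458 to 13702). Pou5f1 was above Cre- in both Cre+ libraries, at levels far apart. Sox2 (chromosome 3, 34649995 to 34652460, within the locus of Sox2ot) had 7 and 1 counts in Cre- and 36 and 1248 counts in Cre+ replicates 1 and 2, or 0.0603, 0.011, 0.33 and 11.9 FPKM. Myc had 3.05 and 3.45 FPKM in Cre- and 4.41 and 45.4 FPKM in Cre+ replicates 1 and 2. Klf4 had 10.2 and 10.3 FPKM in Cre- and 7.99 and 29.4 FPKM in Cre+, so that replicate 1 was below both controls. The counts do not separate cassette transcripts from those of the endogenous genes.

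Cre+ replicate 1 was weak in OSKM beside the other days, whereas Cre+ replicate 2 lay in the lower part of their range. In EDL at 2.5 days the Cre+ libraries had 15.3 and 58.5 FPKM of Pou5f1, and at 8.5 days 66.4 and 53.7 FPKM. Cre+ replicate 2 of 5.5 days, with 29.4 FPKM, was above the lower library of 2.5 days, and this was also so for Sox2 (11.9 against 6.26), Klf4 (29.4 against 21.3) and Myc (45.4 against 22.2). Cre+ replicate 2 was below the remaining Cre+ EDL libraries of the other days in all 4 factors. These had 20.2 to 25.6 FPKM of Sox2, 44.8 to 53.9 FPKM of Klf4 and 71.9 to 82.4 FPKM of Myc. Cre+ replicate 1 was below every Cre+ EDL library of the other days in all 4 factors. In the fit, the log2 fold change of Pou5f1 was 9.59 (SE 1.66, adjusted p = 0.0225, edgeR) and that of Sox2 was 7.27 (SE 1.46, adjusted p = 0.046, edgeR), both sizes resting on few Cre- counts. Myc (log2 fold change 2.94, SE 0.72, adjusted p = 0.116, edgeR) and Klf4 (0.86, SE 0.51, adjusted p = 0.719, edgeR) did not pass.

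**Figure D1:**
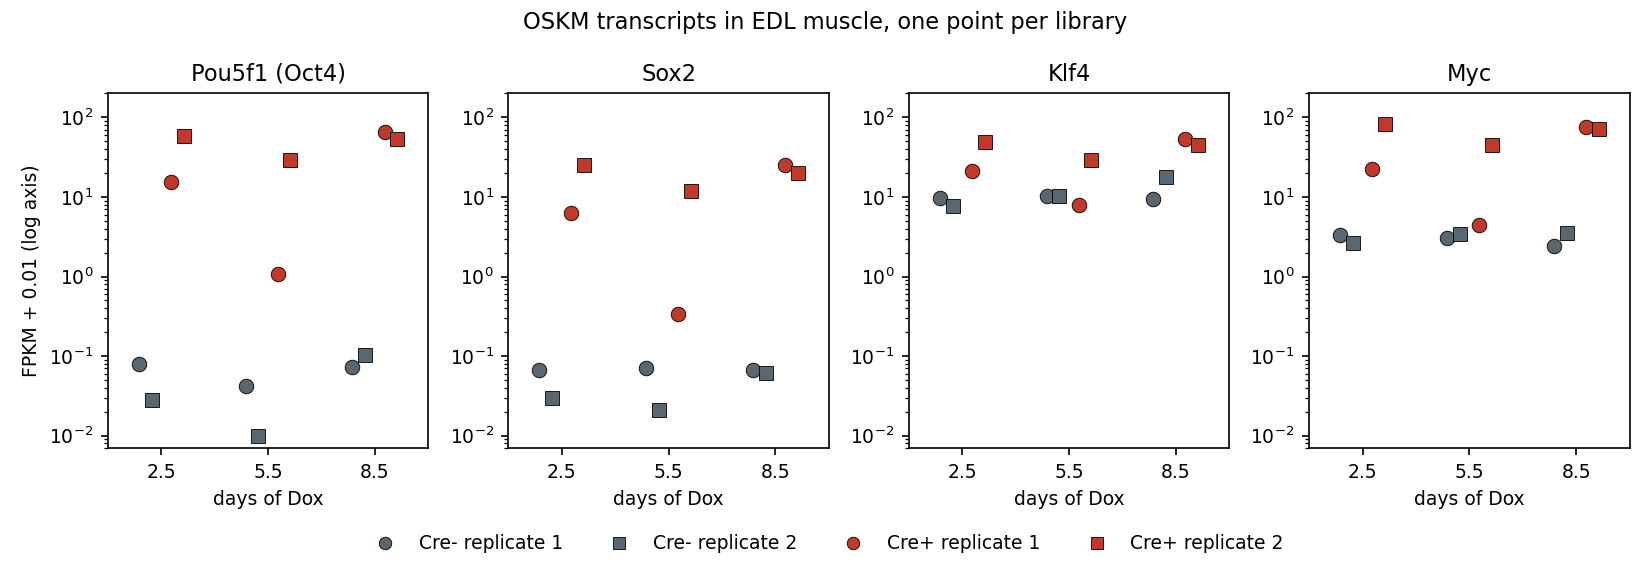
FPKM of the 4 OSKM genes in each EDL library (log axis, 0.01 added so that the library at 0 can be shown), by days of Dox. Grey points are Cre- and red points Cre+ libraries, circles replicate 1 and squares replicate 2. At 5.5 days, the red circle lies near or below the grey points for Klf4 and Myc and between the groups for Pou5f1 (1.07 FPKM) and Sox2 (0.33 FPKM).

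The 4 libraries held 54679082 and 43202264 counts (Cre-) and 46635627 and 45234497 counts (Cre+). A count of 0 allows up to 3 counts, or 0.0637 to 0.0815 CPM in these libraries, for counting error alone. All 4 had the markers of fast muscle, such as Myh4 at 6794 to 8368 FPKM against 56.3 to 250.8 FPKM in the SOL libraries of the same day, and Myh7, the slow myosin, at 33.3 to 54.5 FPKM against 3433 to 4015 FPKM. Xist, which female cells express, had 10.3 to 11.8 FPKM in the 4 libraries and 8.23 to 21 FPKM at 8.5 days but 0.00611 to 0.0213 FPKM at 2.5 days, where the Y-linked Ddx3y had 11.1 to 14.3 FPKM. Sex and day therefore cannot be told apart where 5.5 days is compared with 2.5 days. Cre+ replicate 1 also stood apart in markers of other cells, given beside the lists below.

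The first question was which genes differed between Cre+ and Cre- muscles at this day. Of the 15478 genes tested, 47 passed (0.304%) in edgeR's quasi-likelihood test, where passing means an adjusted p under 0.05 together with a log2 fold change beyond 0.5 in either direction. They were 40 genes that rose (0.258%) and 7 that fell (0.0452%). By unadjusted p under 0.05, 1307 genes passed. Of the 47, 5 were members of the 34 gene lists examined: Pou5f1, Sox2, Gdf11, Nupr1 and Ddit4. The lists hold a small part of the genes tested, so this count describes the 47 genes and carries no test. At 2.5 days 3879 genes passed (25.1%, 14.6% higher and 10.5% lower) and at 8.5 days 2485 (16.1%, 7.82% higher and 8.24% lower), whereas in SOL at 5.5 days none passed (597 by unadjusted p under 0.05, and 0 by DESeq2), with 4 and 22 counts of Pou5f1 in its Cre+ libraries. The count of 47 depended on the model, with 6 when the 12 EDL libraries were fitted alone, 3 when the 4 libraries were, and 172 with DESeq2 on all 24, and on single libraries, with 3 without Cre- replicate 1, 6 without Cre- replicate 2, 153 without Cre+ replicate 1 and 6 without Cre+ replicate 2. The sign of all 47 was kept in each of these fits.

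Without Cre+ replicate 2, the fit compares the library with little OSKM against the Cre- libraries, and 6 genes passed, all of them among the 47. They were Mpp1, Aldh1b1, Serpinb1a, Slc25a24 and Gpx1, which were higher, and Med26, which was lower. The lone Cre+ library is assumed in this fit to vary like the other groups. Mpp1 and Aldh1b1 passed in every one of the alternative fits of these data, including edgeR on the 4 libraries alone (adjusted p = 0.0116 each).

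The promoters of 4 of these 6 genes are shown, namely the 2 genes that passed in every fit, the 1 with a searched motif among the 5 promoters at hand, and the 1 that fell. No promoter of Serpinb1a was searched. Each run covers 250 bases before to 50 bases after the RefSeq start, 5′ to 3′ on the gene's strand, on GRCm38.p6 from RefSeq, and capitals mark a match to the Klf4 motif.

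Mpp1, chrX:75130967-75131266, minus strand: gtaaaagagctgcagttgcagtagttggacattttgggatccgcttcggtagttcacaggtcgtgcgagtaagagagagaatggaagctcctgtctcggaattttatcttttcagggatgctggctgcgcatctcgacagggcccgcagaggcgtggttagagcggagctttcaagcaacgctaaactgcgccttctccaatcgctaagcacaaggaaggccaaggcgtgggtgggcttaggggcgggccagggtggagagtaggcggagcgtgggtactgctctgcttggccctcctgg

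Aldh1b1, chr4:45798772-45799071, plus strand: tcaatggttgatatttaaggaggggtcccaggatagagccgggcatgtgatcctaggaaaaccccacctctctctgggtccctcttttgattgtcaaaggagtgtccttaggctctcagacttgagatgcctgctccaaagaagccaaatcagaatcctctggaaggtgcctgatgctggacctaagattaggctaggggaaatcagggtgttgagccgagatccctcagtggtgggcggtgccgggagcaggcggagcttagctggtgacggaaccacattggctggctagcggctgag

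Slc25a24, chr3:109122899-109123198, plus strand: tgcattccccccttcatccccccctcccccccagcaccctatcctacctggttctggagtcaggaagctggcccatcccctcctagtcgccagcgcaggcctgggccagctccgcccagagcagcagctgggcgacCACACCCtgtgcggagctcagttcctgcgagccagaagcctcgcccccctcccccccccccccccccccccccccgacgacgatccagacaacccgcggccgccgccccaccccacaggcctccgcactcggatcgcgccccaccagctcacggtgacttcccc

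Med26, chr8:72548261-72548560, minus strand: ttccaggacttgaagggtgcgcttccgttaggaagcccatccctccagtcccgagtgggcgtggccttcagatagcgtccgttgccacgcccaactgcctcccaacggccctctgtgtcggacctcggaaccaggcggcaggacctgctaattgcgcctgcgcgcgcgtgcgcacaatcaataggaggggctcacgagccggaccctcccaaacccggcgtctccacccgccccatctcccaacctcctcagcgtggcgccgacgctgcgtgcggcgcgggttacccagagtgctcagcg

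Of the 4 promoters shown, that of Slc25a24 holds one of the 3 searched motifs, each read on both strands. CACGTG is the E-box bound by Myc. ATGCAAA is the core of the octamer bound by Oct4. CACACCC is the box bound by Klf4 and related factors. Promoters were at hand for 35 of the 40 rises and for 11754 of the 15478 genes tested. CACGTG was in 2 of the 35 (5.71%, against 9.73% of all), ATGCAAA in 1 (2.86% against 3.45%), which was the Sox2 promoter, and CACACCC in 4 (11.4% against 8.56%). Sox2 is also encoded by the cassette, whose transcripts the counts do not separate from those of the endogenous gene with this promoter. The rises with CACGTG were Kcnk5 and Nupr1, and those with CACACCC were Slc25a24, Aknad1, Mycn and Necab3. Of the 7 falls, 1 held CACACCC, which was Gpt2. A match describes the letters of this window only.

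Mpp1 (chromosome X, 75109733 to 75131016) encodes p55, a palmitoylated scaffold protein of the cell membrane. It had 7.25 and 7.22 FPKM in Cre- and 27.1 and 32.8 FPKM in Cre+ replicates 1 and 2. The log2 fold change was 2.05 (SE 0.18, adjusted p = 3.27e-05, edgeR), and without Cre+ replicate 2 it was 1.90 (adjusted p = 0.000856, edgeR). Its levels were alike within each genotype and the groups did not overlap. Mpp1 overlaps Dkc1, which had 13.3 and 14.7 FPKM in Cre- and 10.9 and 15.9 FPKM in Cre+.

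Aldh1b1 (chromosome 4, 45799022 to 45804608), a mitochondrial aldehyde dehydrogenase, had 0.471 and 0.414 FPKM in Cre- and 9.95 and 17.4 FPKM in Cre+. Its log2 fold change of 4.94 (SE 0.49, adjusted p = 0.000122, edgeR) was 4.48 without Cre+ replicate 2 (adjusted p = 0.00112, edgeR). It was nearly silent in the Cre- muscles and high in both Cre+ muscles, including the one with 1.07 FPKM of Pou5f1. Serpinb1a, an inhibitor of serine proteases, had 1.75 and 1.96 FPKM in Cre- and 11 and 18.3 FPKM in Cre+ (log2 fold change 2.98, SE 0.35, adjusted p = 0.000826, edgeR).

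Slc25a24, a mitochondrial carrier that exchanges ATP-Mg and phosphate, had 1.2 and 1.21 FPKM in Cre- and 2.44 and 4 FPKM in Cre+ (log2 fold change 1.42, SE 0.18, adjusted p = 0.00137, edgeR). Gpx1, a glutathione peroxidase that removes hydrogen peroxide, was at 43.4 and 53.4 FPKM in Cre- and at 95.4 and 117 FPKM in Cre+ (1.14, SE 0.14, adjusted p = 0.00137, edgeR). Med26, a subunit of the Mediator complex, was at 6.71 and 6.83 FPKM in Cre- and at 3.24 and 3.84 FPKM in Cre+ (log2 fold change -0.94, SE 0.13, adjusted p = 0.00368, edgeR). For Med26 the lower value was that of the library with less OSKM. For the 5 genes that rose, the higher value was that of the library with more. Without Cre+ replicate 2, the adjusted p was 0.0148 for Serpinb1a, 0.0172 for Slc25a24, 0.0434 for Gpx1 and 0.0193 for Med26.

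**Figure D2:**
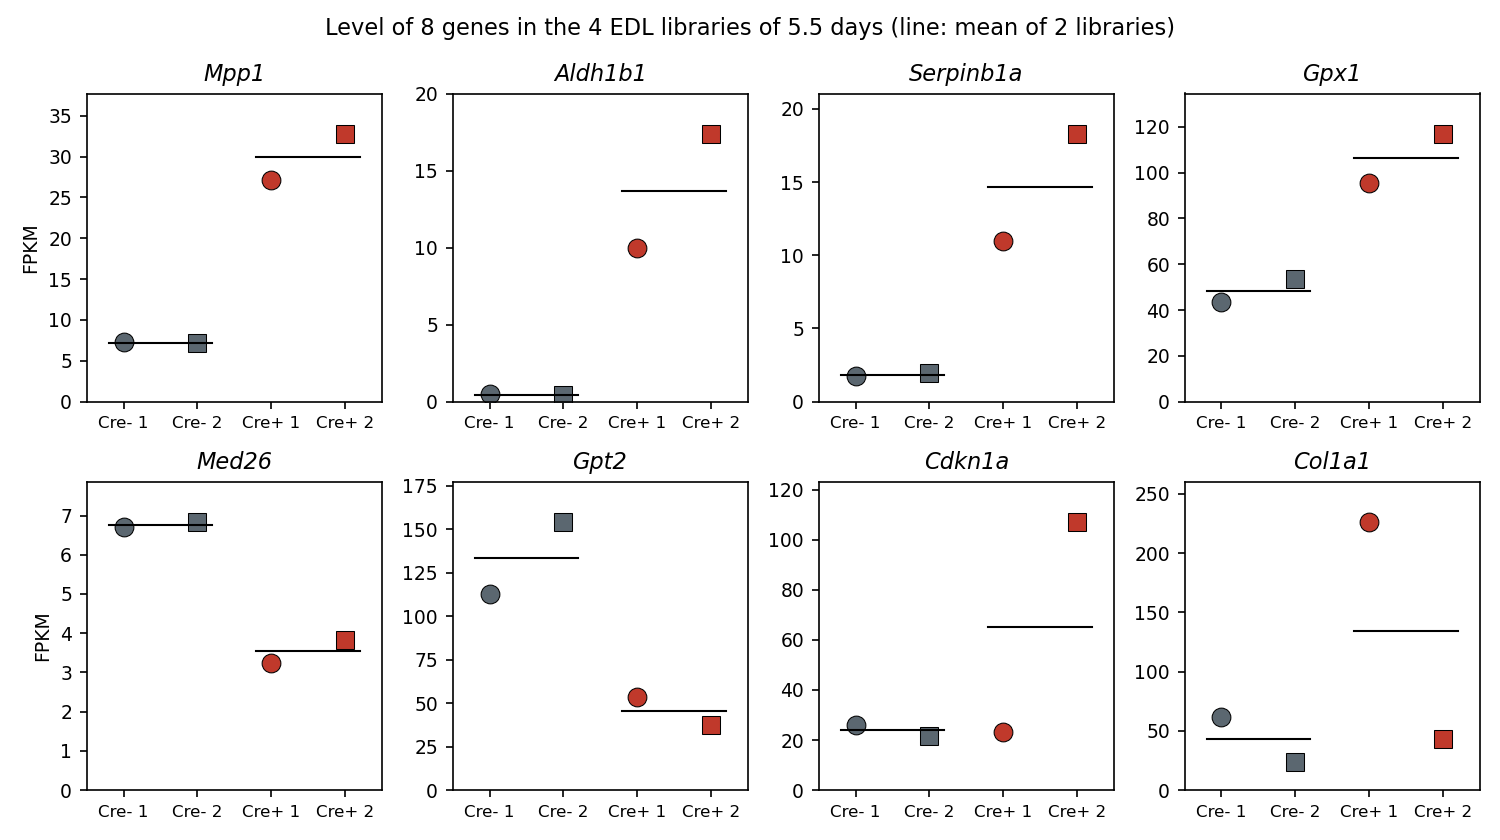
FPKM of 8 genes in the 4 EDL libraries of 5.5 days, with a line at the mean of each genotype. Mpp1, Aldh1b1, Serpinb1a, Gpx1, Med26 and Gpt2 differ from Cre- in both Cre+ libraries, whereas Cdkn1a stands out only in Cre+ replicate 2 (107 FPKM) and Col1a1 only in Cre+ replicate 1 (226 FPKM).

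The other 6 falls were Gpt2, Arrdc3, Ddit4, Rab7, Stab2 and 2210408F21Rik. Gpt2, the mitochondrial alanine aminotransferase, was at 113 and 154 FPKM in Cre- and at 53.3 and 37.3 FPKM in Cre+ and fell by 1.56 on the log2 scale (SE 0.23, adjusted p = 0.00615, edgeR). Arrdc3, an alpha-arrestin, was at 48.6 and 47.8 FPKM in Cre- and at 24.4 and 18.3 FPKM in Cre+ and fell by 1.18 (SE 0.19, adjusted p = 0.0132, edgeR). Both were lower in Cre+ replicate 2 than in replicate 1. Ddit4, an inhibitor of mTORC1 that responds to stress and fasting, was at 98.2 and 79.4 FPKM in Cre- and at 20.7 and 36.1 FPKM in Cre+ and fell by 1.64 (SE 0.33, adjusted p = 0.0449, edgeR). Rab7, a GTPase of late endosomes, went from 143 and 161 FPKM to 98 and 105 FPKM (log2 fold change -0.59, SE 0.11, adjusted p = 0.0412, edgeR). Stab2, a scavenger receptor known from sinusoidal endothelium, went from 0.603 and 0.802 FPKM to 0.23 and 0.218 FPKM (-1.65, SE 0.31, adjusted p = 0.037, edgeR), and the transcript 2210408F21Rik from 34.3 and 38.4 FPKM to 24.7 and 23.6 FPKM (-0.59, SE 0.12, adjusted p = 0.0449, edgeR). In none of the 7 falls did the groups overlap, while over all genes tested both Cre+ libraries were below both Cre- libraries for 21.1%. The same 4 libraries chose the 7 genes, so this describes them and is no test. Since RNA came from whole muscle, fewer cells of a type and less RNA per cell cannot be told apart.

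Of the rises, Lefty1, Gdf11 and Mycn encode secreted ligands or inhibitors and a transcription factor known from development. Lefty1, a secreted inhibitor of Nodal signalling, was at 0.657 and 0.589 FPKM in Cre- and at 1.55 and 2.25 FPKM in Cre+ (log2 fold change 1.60, SE 0.26, adjusted p = 0.0157, edgeR). Gdf11, a ligand of the TGF-beta family, was at 2.12 and 1.37 FPKM in Cre- and at 5.96 and 7.68 FPKM in Cre+ (1.96, SE 0.34, adjusted p = 0.0225, edgeR). Mycn, a transcription factor of the Myc family, was at 0.139 and 0.157 FPKM in Cre- and at 0.793 and 0.389 FPKM in Cre+ (1.99, SE 0.40, adjusted p = 0.0481, edgeR), and was thus higher in the library with less OSKM.

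Grhl3, a transcription factor of surface epithelia, had 2 counts in the Cre- libraries together and 23 and 20 counts in the Cre+ libraries, a ratio of 20.7 for both (95% counting interval 5.4 to 177). Its level was about the same in both Cre+ muscles, 0.188 and 0.17 FPKM. Gng13, a gamma subunit of G proteins, had 2 counts in the Cre- libraries together and 55 and 511 counts in the Cre+ libraries, a ratio of 52.1 (13.7 to 441) in replicate 1 and 503 (138 to 4161) in replicate 2. Gng13 overlaps Chtf18. Aknad1 had 3 Cre- counts and 15 and 29 Cre+ counts, a ratio of 14.2 (4.54 to 71.2). Ephb3, a receptor for ephrins, was at 0.504 and 0.507 FPKM in Cre- and at 0.962 and 1.59 FPKM in Cre+ (1.33, SE 0.25, adjusted p = 0.0352, edgeR). Pcbd1, an enzyme of tetrahydrobiopterin recycling, was at 0.182 and 0.2 FPKM in Cre- and at 1.36 and 2.79 FPKM in Cre+ (3.42, SE 0.57, adjusted p = 0.0168, edgeR).

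Serpinb6a, an intracellular serine protease inhibitor, was at 111 and 142 FPKM in Cre- and at 287 and 633 FPKM in Cre+ (log2 fold change 1.86, SE 0.28, adjusted p = 0.00926, edgeR). Kcnk5, a background potassium channel, was at 0.664 and 0.575 FPKM in Cre- and at 1.4 and 9.01 FPKM in Cre+ (3.06, SE 0.62, adjusted p = 0.0481, edgeR). Cfap52, a protein of cilia and flagella, was at 0.505 and 0.448 FPKM in Cre- and at 1.83 and 4.86 FPKM in Cre+ (2.80, SE 0.46, adjusted p = 0.0157, edgeR). In each of these the Cre+ libraries were far apart and both were above Cre-. Anxa4, S100a13 and Rcn1, which bind calcium, had log2 fold changes of 1.42, 1.88 and 1.30. Stom (stomatin, a membrane protein), Cspg4 (the proteoglycan NG2), Crip2, Plp2 and Tmem43 had log2 fold changes of 0.95, 0.93, 1.42, 1.34 and 1.31. Triobp, an actin-binding protein, went from 4.93 and 4.77 FPKM to 9.58 and 11.4 FPKM (1.11, SE 0.20, adjusted p = 0.0291, edgeR).

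The rest of the 40 rises had log2 fold changes between 0.74 and 2.40 and were Acot9, Arfgap3, Cfap36, Dusp14, Neu2, Nupr1, Necab3, Sgms2, Sh2d4a, Spsb2, Socs3, A930004D18Rik and 2310022B05Rik. In Cre+ replicate 1, the median log2 difference from the mean of the Cre- libraries was 0.999 over the 40 rises and -1.06 over the 7 falls, and in replicate 2 it was 1.88 and -1.29. The difference was as large in replicate 1 as in replicate 2, or larger, in 3 of the 40 rises and in 3 of the 7 falls. Since the same 4 libraries chose these genes, the values describe the genes and carry no test.

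**Figure D3:**
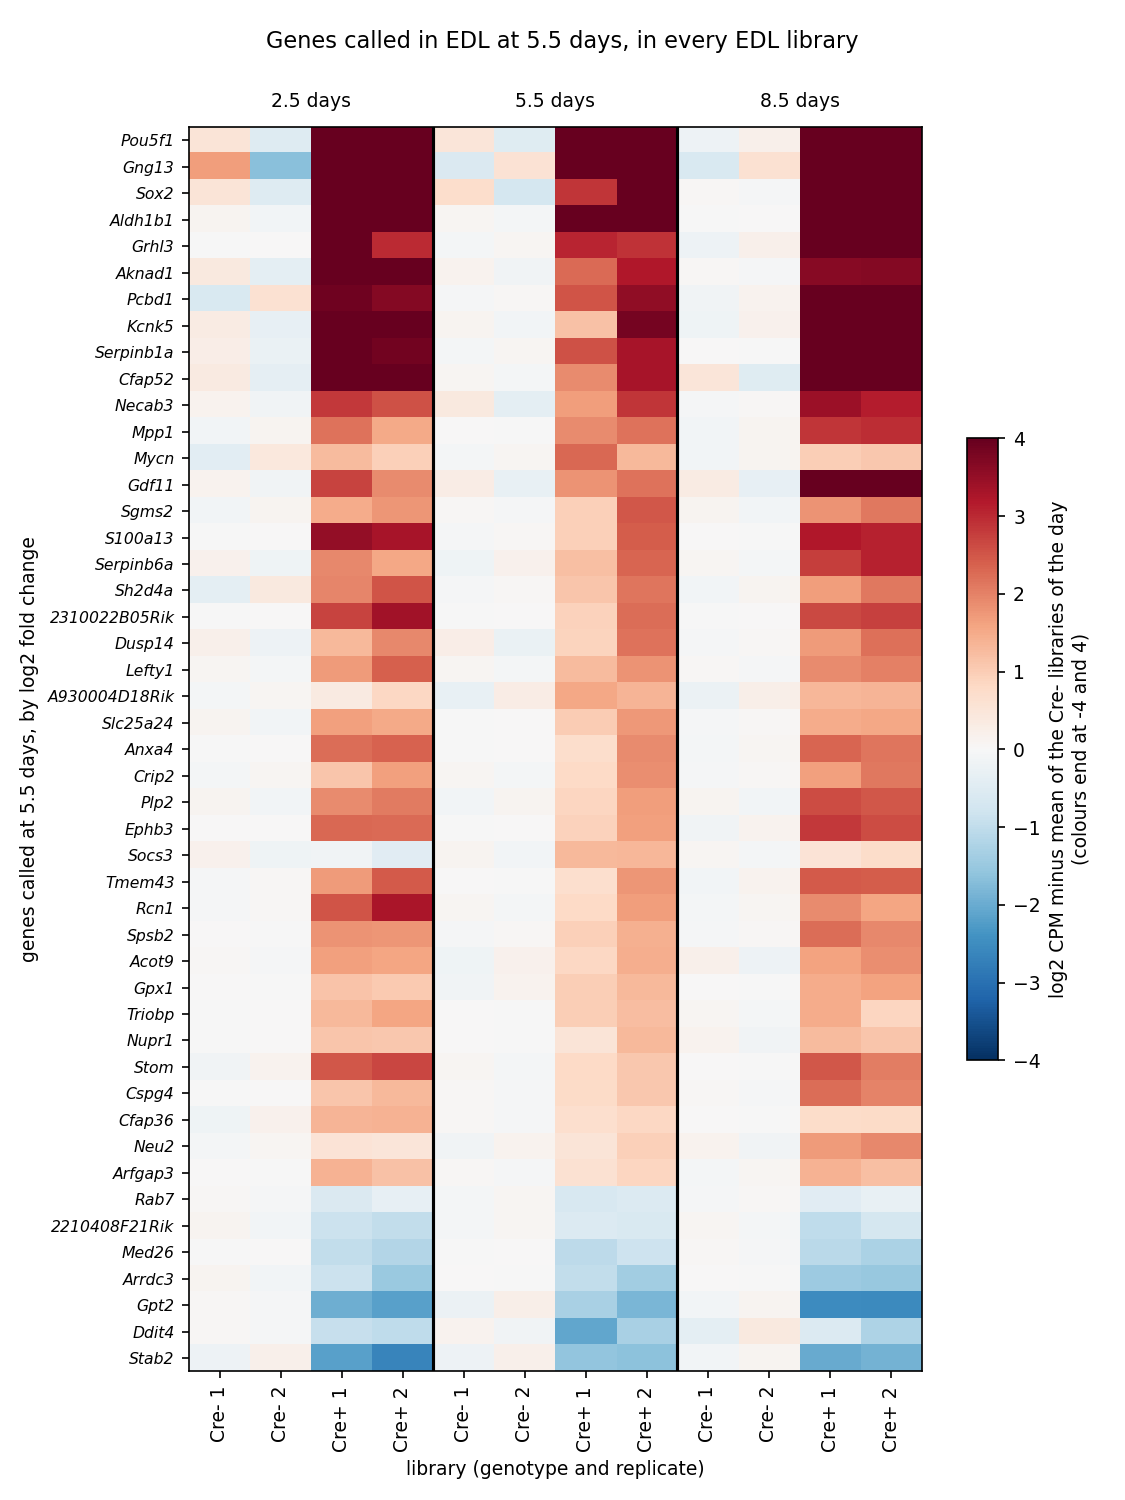
The 47 genes that passed at 5.5 days (rows) in the 12 EDL libraries (columns), as log2 CPM minus the mean of the Cre- libraries of the same day, with colours ending at -4 and 4. Red is higher and blue lower, and at 5.5 days most rows are paler in Cre+ replicate 1 (median 0.999 over the rises) than in replicate 2 (1.88), while Socs3 is not higher at 2.5 days (log2 fold change -0.30).

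Some genes were far above Cre- in Cre+ replicate 2 and close to it in replicate 1. Cdkn1a, the cell cycle inhibitor p21, was at 26.1 and 21.8 FPKM in Cre- and at 23.4 and 107 FPKM in Cre+ replicates 1 and 2 (log2 fold change 1.44, SE 0.42, adjusted p = 0.226, edgeR). Sdc4, a heparan sulfate proteoglycan, was at 12.1 and 11.6 FPKM in Cre- and at 12.9 and 29 FPKM in Cre+ (0.82, SE 0.34, adjusted p = 0.476, edgeR). For both, replicate 1 lay within or next to the Cre- values and replicate 2 well above them. Without Cre+ replicate 1, Cdkn1a passed (2.16, adjusted p = 0.00015, edgeR), and so did Myc (3.81, adjusted p = 0.000616, edgeR), and without Cre+ replicate 2 their values were -0.03 and 0.44. Evpl, a plaque protein of epithelia, had 8 and 6 counts in Cre- and 18 and 183 counts in Cre+ (3.79, SE 0.94, adjusted p = 0.117, edgeR). Pkp1, a desmosome protein of epithelia, had 0 counts in both Cre- libraries and 4 and 31 counts in Cre+. Evpl and Pkp1 were above both Cre- libraries in both Cre+ libraries, at low counts in replicate 1. Over all genes tested, this was so for 16.3%, and the epithelial list is described below.

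Of the genes that signal to satellite cells, the stem cells of muscle, Wnt4 had 11.1 and 11.8 FPKM in Cre- and 6.62 and 4.59 FPKM in Cre+, without passing (log2 fold change -1.03, SE 0.30, adjusted p = 0.226, edgeR). Wnt4 passed in 1 of the 10 alternative fits with all 4 libraries, which was DESeq2 on these 4 alone (adjusted p = 0.000345). That fit also called 34 genes in simulated counts where none were changed. Itga7, the muscle laminin receptor subunit, had 38.9 and 40.4 FPKM in Cre- and 48.5 and 58.2 FPKM in Cre+ (0.43, SE 0.20, adjusted p = 0.56, edgeR). The groups did not overlap for either gene, and each was further from Cre- in replicate 2. Over all genes tested, both Cre+ libraries were below both Cre- libraries for 21.1% and above both for 16.3%. Wnt2b had 0.202 and 0.13 FPKM in Cre- and 0.247 and 0.21 FPKM in Cre+ (0.45, SE 0.64, adjusted p = 0.924, edgeR). In the list of niche and signalling genes, Gdf11 was the 1 of 29 members tested that passed (0.304% of all genes), and the median log2 fold change was 0.22 against -0.00803 over all genes.

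The second question was how much of the response seen at the other days was present. The libraries of 2.5 and 8.5 days are separate from those of 5.5 days, Cre- included, though all were fitted together. Of the 47 genes, 42 passed in the same direction at both other days, 37 of the rises and 5 of the falls. The 37 include Pou5f1 and Sox2, which the cassette encodes. Of all 15478 genes tested, 973 passed as higher and 778 as lower at both other days. The other 5 of the 47 were Socs3, A930004D18Rik, Mycn, Ddit4 and Rab7. Of these, Mycn (1.13 and 1.06), Ddit4 (-0.97 and -0.90) and Rab7 (-0.46 and -0.37) had log2 fold changes of the same sign at 2.5 and 8.5 days. Socs3, an inhibitor of cytokine signalling, was at 2.09 and 1.83 FPKM in Cre- and at 4.87 and 4.95 FPKM in Cre+ (1.32, SE 0.25, adjusted p = 0.0386, edgeR), while its log2 fold change was -0.30 (adjusted p = 0.389) at 2.5 days and 0.65 (adjusted p = 0.0764) at 8.5 days. The difference between 5.5 and 2.5 days was 1.62 for Socs3 (adjusted p = 0.0152, edgeR). It did not pass against 8.5 days (0.67, adjusted p = 0.507).

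Conversely, 1751 genes passed in the same direction at 2.5 and 8.5 days, 973 of them higher and 778 lower in Cre+. Of these, 42 (2.4%, against 0.304% of all genes) passed at 5.5 days. They were 3.8% of the 973 (0.258% of all genes rose) and 0.643% of the 778 (0.0452% of all genes fell). Over the 973, the median log2 fold change at 5.5 days was 0.341, against 1.31 at 2.5 days and 1.06 at 8.5 days. Over the 778 it was -0.313, against -0.936 and -0.853. By unadjusted p under 0.05, 344 of the 973 were higher at 5.5 days (35.4%, against 4.51% of all genes) and 288 of the 778 lower (37%, against 3.93%). The sign at 5.5 days was positive in 909 of the 973 (93.4%, against 48.4% of all genes tested) and negative in 746 of the 778 (95.9%, against 51.3%). With library size alone as the scaling, which moved the median of all genes to 0.135, the medians were 0.484 and -0.17. Without Cre+ replicate 2 they were 0.173 and -0.244. In SOL at 5.5 days the medians of the same genes were -0.00292 and -0.00227.

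Both Cre+ libraries took part in this shift. Cre+ replicate 1 was above both Cre- libraries for 610 of the 973 genes (62.7%, against 36.1% of all genes) and below both for 601 of the 778 (77.2%, against 39.4%). For replicate 2 the counts were 878 (90.2%, against 33% of all) and 735 (94.5%, against 38.5%). The median log2 difference from the Cre- mean was 0.179 and -0.238 in replicate 1 and 0.46 and -0.393 in replicate 2, while the Cre- libraries differed from each other by -0.00449 and 0.0384. Both Cre+ libraries lay above both Cre- libraries for 573 of the 973 genes (58.9%, against 16.3%) and below both for 589 of the 778 (75.7%, against 21.1%).

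**Figure D4:**
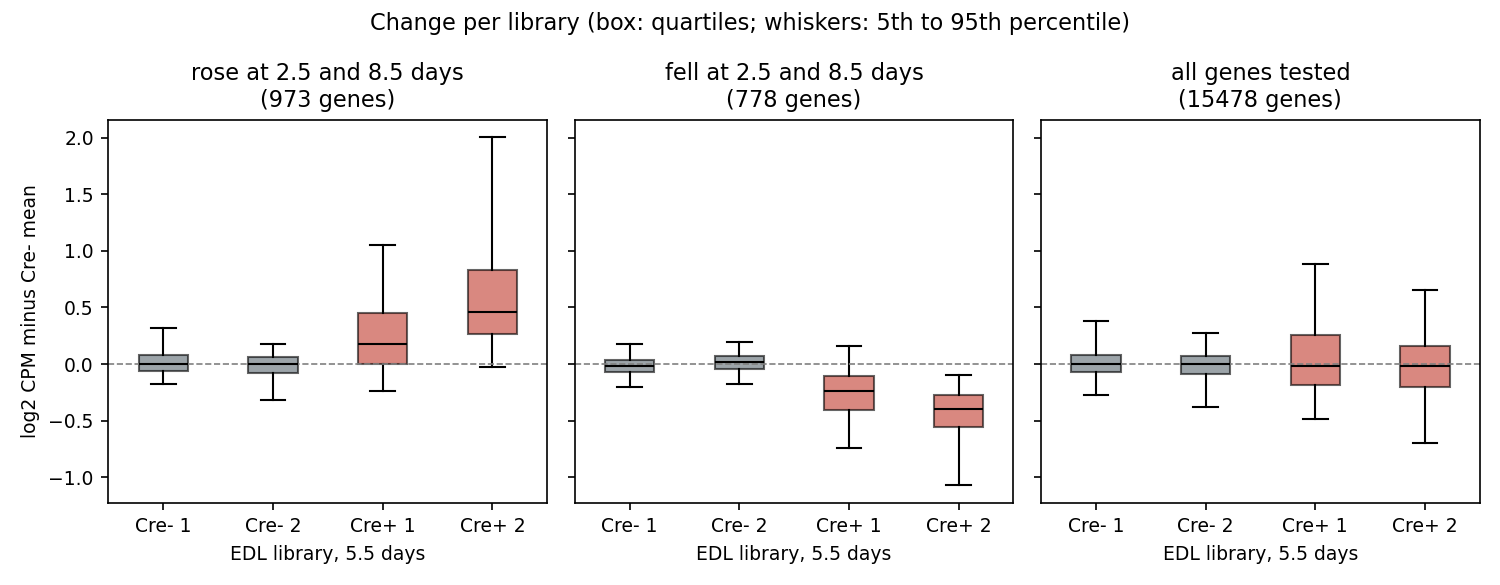
Log2 CPM minus the mean of the 2 Cre- libraries, for each EDL library of 5.5 days, over the genes that were higher (973) or lower (778) in Cre+ at both other days and over all 15478 genes tested. Boxes show the quartiles with a line at the median and whiskers the 5th to 95th percentile. The Cre+ boxes are shifted in the direction of the other days, in replicate 1 by a median of 0.179 and -0.238 and in replicate 2 by 0.46 and -0.393, while the boxes of all genes stay centred near 0.

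As a share of the mean log2 change at the other days, the change at 5.5 days had a median of 0.292 over the 973 genes (quartiles 0.155 and 0.448) and of 0.346 over the 778 (0.241 and 0.47). The share was 1 or more for 8 and 4 genes. The 10 largest shares among genes with at least 1 FPKM on average over the EDL libraries, from 1.35 for Dkk3 to 0.99 for Pald1, were those of Dkk3, Sgms2, Nt5dc3, E2f1, Cebpd, Srebf1, Ckap4, Pou5f1, Fndc3b and Pald1. Dkk3, a secreted glycoprotein of the Dickkopf family, was at 22.9 and 16.9 FPKM in Cre- and at 7.59 and 2.07 FPKM in Cre+ (log2 fold change -2.04, SE 0.43, adjusted p = 0.0532, edgeR), against -1.46 and -1.56 at 2.5 and 8.5 days. Cebpd, a transcription factor induced by glucocorticoids and inflammation, was at 20.8 and 25.9 FPKM in Cre- and at 6.41 and 9.92 FPKM in Cre+ (-1.52, SE 0.38, adjusted p = 0.124, edgeR). Srebf1, which drives fatty acid synthesis, was at 17.1 and 18.7 FPKM in Cre- and at 10.5 and 9.46 FPKM in Cre+ (-0.84, SE 0.18, adjusted p = 0.0681, edgeR). Nt5dc3 was at 28.6 and 29.2 FPKM in Cre- and at 19.5 and 18.6 FPKM in Cre+ (-0.60, SE 0.13, adjusted p = 0.0714, edgeR). In all 4 genes both Cre+ libraries were below both Cre- libraries, as for 21.1% of all genes tested. Their change at 5.5 days took part in choosing them, so this is no test. Of the others, Ckap4 (0.92), E2f1 (1.12), Fndc3b (0.69) and Pald1 (0.97) were higher without passing.

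Genes of oxidative metabolism lay lower as a group. All 42 members tested of the oxidative phosphorylation list, which covers subunits of the respiratory chain and ATP synthase, had a negative log2 fold change, from -0.44 to -0.08 with a median of -0.28. Both Cre+ libraries were below both Cre- libraries for 40 of the 42, against 21.1% of all genes. None passed, and 15 were lower by unadjusted p under 0.05 (3.93% of all genes). Their summed FPKM was 26344 and 27851 in Cre- and 22656 and 21443 in Cre+ replicates 1 and 2. The median was -0.22 in replicate 1 and -0.31 in replicate 2, so that the library with little OSKM was lower by nearly as much. At 2.5 and 8.5 days, 37 and 38 of the 42 passed as lower (10.5% and 8.24% of all genes), with medians of -0.73 and -0.77. With library size alone, the median at 5.5 days was -0.134 and 40 of 42 were negative.

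Among its members, Cox6a2, the muscle form of a complex IV subunit, was at 1817 and 1961 FPKM in Cre- and at 1456 and 1351 FPKM in Cre+ (log2 fold change -0.43, SE 0.17, adjusted p = 0.445, edgeR). Atp5b, the catalytic beta subunit of ATP synthase, was at 2569 and 2690 FPKM in Cre- and at 2250 and 1993 FPKM in Cre+ (-0.31, SE 0.15, adjusted p = 0.596, edgeR). In both genes the Cre+ values were below both Cre- values. In the list of the TCA cycle and fatty acid oxidation, 30 of 32 members were negative (median -0.22, against 51.3% negative among all genes), and both Cre+ libraries were below both Cre- libraries for 29 (21.1% of all genes). With library size alone its median was -0.0792 and 27 of 32 were negative. Mdh2, mitochondrial malate dehydrogenase, was at 955 and 907 FPKM in Cre- and 880 and 759 FPKM in Cre+.

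In the list of glycolysis and glycogen, 19 of 28 members were negative, against 51.3% of all genes, and none passed. The median was -0.16, and it was -0.0118 with library size alone and -0.287 without Cre+ replicate 1. Hk2, the muscle hexokinase, was at 141 and 114 FPKM in Cre- and at 82.4 and 62.7 FPKM in Cre+ (log2 fold change -0.81, SE 0.17, adjusted p = 0.0517, edgeR). Phka1, a subunit of phosphorylase kinase, was at 207 and 206 FPKM in Cre- and at 139 and 137 FPKM in Cre+ (-0.58, SE 0.19, adjusted p = 0.288, edgeR). Aldoa, the muscle aldolase, was at 12810 and 14049 FPKM in Cre- and at 10970 and 10428 FPKM in Cre+. In the list of fast contraction genes 24 of 29 were negative (median -0.29, against 51.3% negative among all genes), both Cre+ libraries were below both Cre- libraries for 17 (21.1% of all genes), and none passed. Its median was -0.144 with library size alone, with 20 of 29 negative, -0.186 without Cre- replicate 2 and -0.185 without Cre+ replicate 2. Jph1, which joins the sarcoplasmic reticulum to the T-tubule, was at 97.3 and 101 FPKM in Cre- and at 64.9 and 70.8 FPKM in Cre+ (-0.55, SE 0.16, adjusted p = 0.23, edgeR). Cacng1, a subunit of the muscle calcium channel, lay in the other direction, at 196 and 203 FPKM in Cre- and at 310 and 381 FPKM in Cre+ (0.79, SE 0.17, adjusted p = 0.0592, edgeR).

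In the atrophy and fasting list, Ddit4 was the 1 of 26 members that passed (0.304% of all genes) and 17 were negative (51.3% of all genes). Klf15, a transcription factor of fasting metabolism, was at 56.9 and 54.7 FPKM in Cre- and at 32.9 and 36.1 FPKM in Cre+ (log2 fold change -0.69, SE 0.18, adjusted p = 0.159, edgeR). This list lay further from Cre- in replicate 1 (median -0.53) than in replicate 2 (-0.08). In the cytoskeleton list no member passed, and both Cre+ libraries were above both Cre- libraries for 6 of 24 (16.3% of all genes). The list's median was 0.48 in replicate 1 and -0.10 in replicate 2. Its beta-tubulin genes Tubb4b (log2 fold change 1.20, adjusted p = 0.0769, edgeR), Tubb5 (1.02, adjusted p = 0.236) and Tubb6 (0.98, adjusted p = 0.279) were higher in both Cre+ libraries. Tubb4b was at 116 and 110 FPKM in Cre- and at 205 and 313 FPKM in Cre+.

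In the remaining lists few or no calls could be expected from the share of all genes called at 5.5 days (0.304%), so a count of 0 says little about them. Of the 36 ribosome biogenesis genes, which include targets of Myc, 0 passed at 5.5 days and 0 were higher by unadjusted p under 0.05 (4.51% of all genes), with a median of 0.06. At 2.5 days 22 of them were called higher (14.6% of all genes) and at 8.5 days 10 (7.82% of all genes). Their median was -0.13 in replicate 1 and 0.21 in replicate 2. Of the 26 p53 targets 0 passed (median -0.05), and 4 were higher by unadjusted p under 0.05. Of the 23 genes tested in the epithelial list, which does not hold Grhl3, 0 passed (median 0.06) and 3 were higher by unadjusted p under 0.05. By the same measure 1 was lower, and 11 of the 23 were negative (51.3% of all genes). Both Cre+ libraries were above both Cre- libraries for 5 (16.3% of all genes) and below both for 2 (21.1%). The list's median was 0.18 in replicate 1 and -0.19 in replicate 2. Among the latter list's members, Elf3, an epithelial transcription factor, was at 0.373 and 0.287 FPKM in Cre- and at 0.703 and 1.85 FPKM in Cre+. Of the 28 genes of the pluripotency network besides OSKM, 11 had enough counts to be tested and none passed (median -0.28, against -0.47 at 2.5 days and -0.57 at 8.5 days), and 11 had no count in any of the 4 libraries. Immediate early genes varied among the libraries. Of the 23 tested, 10 were negative (51.3% of all genes), and the median was -0.06 in replicate 1 and 0.07 in replicate 2. Both Cre+ libraries were above both Cre- libraries for 8 (16.3% of all genes) and below both for 6 (21.1%). Egr1 was at 1.34 and 2.11 FPKM in Cre- and at 17.5 and 4.09 FPKM in Cre+ replicates 1 and 2, and Fos was at 4.28 and 7.08 FPKM in Cre- and at 19.4 and 11.2 FPKM in Cre+, without passing (adjusted p = 0.196 and 0.251, edgeR). Dusp1, a phosphatase of the same group, was at 43 and 46.3 FPKM in Cre- and at 62.5 and 80.4 FPKM in Cre+.

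Markers of other cell types differed among the 4 libraries. The 14 fibroblast markers summed to 1421 and 1232 FPKM in Cre- and to 2417 and 1426 FPKM in Cre+ replicates 1 and 2. Col1a1, which encodes a chain of collagen I, was at 62.1 and 23.6 FPKM in Cre- and at 226 and 43.1 FPKM in Cre+, and Col3a1, of collagen III, at 17 and 11.3 FPKM in Cre- and at 54.7 and 14.5 FPKM in Cre+. The 10 tendon markers summed to 527.8 and 380 FPKM in Cre- and to 751.8 and 579.6 FPKM in Cre+. The 10 erythroid markers summed to 538 and 1596 FPKM in Cre- and to 3113 and 1730 FPKM in Cre+, with Hbb-bs at 147, 394, 782 and 447 FPKM in the same order. The 18 macrophage markers summed to 109.9 and 160.2 FPKM and to 195.2 and 120.6 FPKM, and the 12 Schwann cell markers to 349 and 128.8 FPKM and to 233.2 and 118.3 FPKM. The 12 endothelial markers summed to 171.9 and 171.2 FPKM in Cre- and to 189.7 and 150 FPKM in Cre+. None of these markers passed between Cre+ and Cre-. Both Cre+ libraries were above both Cre- libraries for 9 of 9 tested erythroid, 5 of 14 fibroblast and 6 of 10 tendon markers. Over all genes tested, this was so for 16.3%. By unadjusted p under 0.05, 6, 6 and 2 of these were higher (4.51% of all genes). In these lists 0 markers were below in both Cre+ libraries. Above and below in both were 1 and 1 of the 18 macrophage, 0 and 3 of the 12 endothelial and 0 and 0 of the 12 Schwann cell markers. Cre+ replicate 1 was the highest library in the fibroblast, tendon, erythroid, macrophage and endothelial sums, and the part of these cells in the results above was not tested. In the other lists, Nupr1, a stress-induced chromatin protein, was the 1 member that passed, at 19.8 and 19.2 FPKM in Cre- and at 28 and 47.9 FPKM in Cre+ (log2 fold change 0.96, SE 0.18, adjusted p = 0.0346, edgeR). It is 1 of 22 genes tested in the stress response list (0.304% of all genes passed), whose median log2 fold change was -0.03. The 25 interferon response genes summed to 193.4 FPKM in Cre- replicate 1 and to between 58.19 and 85.41 FPKM in the other 3 libraries.

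**Figure D5:**
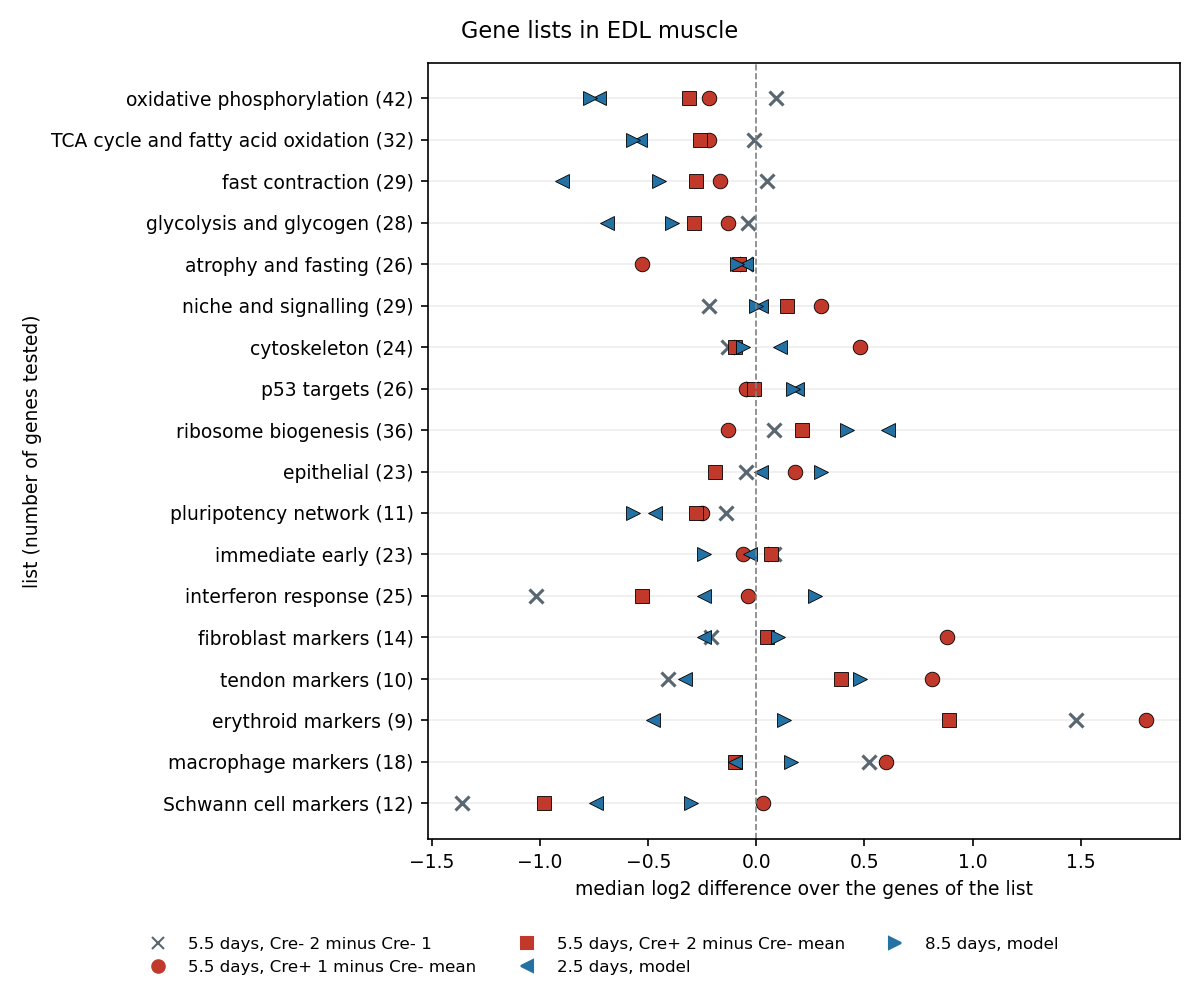
Median log2 difference over the tested genes of 18 lists in EDL muscle. Crosses give Cre- replicate 2 minus Cre- replicate 1 at 5.5 days, red circles and squares Cre+ replicates 1 and 2 minus the Cre- mean at 5.5 days, and blue triangles the fitted change at 2.5 (left-pointing) and 8.5 days (right-pointing). For oxidative phosphorylation the red points (-0.22 and -0.31) lie between 0 and the blue points (-0.73 and -0.77), while for erythroid and Schwann cell markers the Cre- libraries themselves differ by 1.48 and -1.36.

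The third question was where the change at 5.5 days differed from that at the other days. Against 2.5 days, 902 genes passed for the difference of the changes (5.83%), 244 with a more positive (1.58%) and 658 with a more negative change (4.25%) at 5.5 days. Against 8.5 days 38 passed (0.246%), 4 with a more positive (0.0258%) and 34 with a more negative change (0.22%). The 902 became 253 without Cre- replicate 1, 358 without Cre- replicate 2, 176 without Cre+ replicate 1 and 168 with the 12 EDL libraries alone. The 38 became 6, 6 and 7 without the same libraries, 206 without Cre+ replicate 2 and 4 with the 12 EDL libraries alone. The genes furthest apart from 2.5 days were P2rx2 (a difference of -8.45 on the log2 scale), Krt7 (-7.12) and Msln (-6.64), which were higher in Cre+ at 2.5 days and had 1 to 61 counts in each library of 5.5 days. In the other direction were Mir133a-2 (3.52), Mir1a-1 (3.31) and Cytl1 (3.19). Mir133a-2 had 28 and 31 counts in Cre- and 71 and 45 counts in Cre+ at 5.5 days and was lower in Cre+ at 2.5 days (-2.62). Both microRNA genes overlap Mir1a-1hg, and their counts in these polyA libraries are not counts of mature microRNAs.

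The genes furthest apart from 8.5 days were AA465934 (-5.34), Abcg4 (-4.51) and Zfp385c (-4.28), and in the other direction Dupd1 (3.52), Rhbdl1 (2.58) and Eif4e3 (1.24). AA465934 was at 33.6 and 76.9 FPKM in Cre- and at 28 and 27.1 FPKM in Cre+ at 5.5 days, whereas it was higher in Cre+ at 2.5 and 8.5 days (log2 fold changes 3.84 and 4.34). It overlaps AI450353 and Snord7. Abcg4, a sterol transporter, had 34 and 13 counts in Cre- and 20 and 31 counts in Cre+ at 5.5 days, against log2 fold changes of 3.30 and 4.61 at the other days. Dupd1, a dual-specificity phosphatase of muscle, was at 18.2 and 15.9 FPKM in Cre- and at 13.3 and 5.55 FPKM in Cre+, with a log2 fold change of -0.85 at 5.5 days against -3.97 and -4.38. Rhbdl1, a rhomboid-like protease, was at 19.8 and 18.2 FPKM in Cre- and at 17 and 5.73 FPKM in Cre+. In both of these genes replicate 2 was far below Cre- and replicate 1 was close to it. Without Cre+ replicate 2, Rhbdl1 differed from Cre- by -0.16, and without Cre+ replicate 1 by -1.73 (adjusted p = 0.000517, edgeR).

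Of the genes that passed at 5.5 days, Stom changed less than at both other days (differences of -1.62 and -1.33, adjusted p = 0.00199 and 0.0362, edgeR). Rcn1 changed less than at 2.5 days (-1.64, adjusted p = 0.0145), and Gdf11 and Neu2 less than at 8.5 days (-2.56 and -1.08, adjusted p = 0.0317 and 0.0362, edgeR). Itga7 also changed less than at 2.5 days (-1.78, adjusted p = 0.00195, edgeR), and Wnt2b did (-3.60, adjusted p = 0.0297). For Mpp1, Gpx1, Med26, Aldh1b1, Gpt2 and Arrdc3 the difference did not pass at either day, with adjusted p from 0.201 to 0.973.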

How the data were processed

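RNA-seq of EDL muscles was analysed, with 2 Cre+ and 2 Cre- libraries of 5.5 days as the comparison and the other 20 libraries in the same fit. The deposited values are raw counts per gene: per the methods and the labels, the authors aligned reads to mm10 with STAR 2.5.3a and used HOMER to count the uniquely aligned ones over RefSeq exons, kept replicates apart, and did not normalize. The libraries are labelled stranded, and the strand setting of the counting is not given in the sources used here, so overlapping genes may share reads. Exon lengths are those in the deposited table. Reads with several equal alignments are not counted, so genes with close copies, such as the Serpinb and tubulin families, are uncertain.

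Counts were tested in R 4.3.3 with edgeR 4.0.16 (quasi-likelihood test, TMM, minimum count 10, 24 libraries in 12 groups, common BCV 0.171, 12 residual degrees of freedom), adjusted by Benjamini-Hochberg over 15478 of 24537 genes. Called genes had an adjusted p under 0.05 and changed by more than 0.5 on the log2 scale. Totals ranged from 36088781 to 54679082 counts. Differences for single libraries are log2 CPM with a prior count of 2. With 2 libraries a side, an exact permutation test of 1 gene cannot give a two-sided p below 0.333. Replicates differed beyond counting error (mean chi-square per gene 25.15 in Cre- and 71.33 in Cre+, where counting error gives 1). The study describes the samples as biologically independent. Cre+ and Cre- libraries of the same number did not deviate together (correlation 0.0578 at 5.5 days), so no block was used. EDL and SOL libraries of the same genotype, day and number did deviate together at every day (0.226, 0.327 and 0.445 in Cre+ and 0.44, 0.173 and 0.204 in Cre-). Whether they share a mouse is not given in the sources used here, and the fit of 24 libraries treats them as independent, so its p-values may be too small. The 12 EDL libraries alone gave 6 calls in place of 47.

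The members and lists were chosen with earlier results of these data known. Named genes were the OSKM and niche genes of the study, all genes called, the most abundant and called members of lists, the 3 most extreme differences between days in each direction with at least 1 FPKM, and the 10 largest shares of the change at the other days. No gene called at 5.5 days had an unadjusted p over 0.05 at both other days with at least 1 FPKM. Dkc1, Evpl, Pkp1, Elf3, Egr1, Fos, Dusp1, Klf15, Hk2, Phka1, Jph1, Cacng1, the tubulins, the collagens and Hbb-bs were named after their values were seen. Alternatives were DESeq2 1.42.0, other scalings, filters, thresholds and subsets of libraries, a fit blocked on replicate number and fits without 1 library. The fits were tested on simulated counts with known changes. With no gene changed, edgeR on 24 libraries called 0 genes and DESeq2 on the 4 libraries called 34. With 200 genes changed, edgeR called 9 and DESeq2 68 of the unchanged genes. Promoters and motifs came from RefSeq tables of GRCm38.p6.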

Additional observations from a re-analysis of the deposited data

Results flagged for a closer look

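The changes at different days were compared by a term for the difference in the same fit, and 902 genes passed between 5.5 and 2.5 days and 38 between 5.5 and 8.5 days. Sex, as read from Xist, also differs between the 5.5-day and 2.5-day libraries and cannot be told apart from day. Of the named genes, those with a more negative change at 5.5 than at 2.5 days, on the log2 scale, were P2rx2 (-8.45), Krt7 (-7.12), Msln (-6.64), AA465934 (-4.84), Wnt2b (-3.60), Zfp385c (-3.47), Abcg4 (-3.20), Tubb6 (-2.36), Tubb5 (-1.98), Itga7 (-1.78), Rcn1 (-1.64) and Stom (-1.62).

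Those with a more positive change than at 2.5 days were Mir133a-2 (3.52), Mir1a-1 (3.31), Cytl1 (3.19), Dupd1 (3.12), Rhbdl1 (2.31), Socs3 (1.62), Dusp1 (1.34) and Eif4e3 (0.93). Of these, Dupd1, Rhbdl1 and Eif4e3 were lower in Cre+ at 2.5 days and less so at 5.5 days, and Cytl1 was high in Cre+ replicate 1 only, at 7.32 FPKM against 1.74 FPKM in replicate 2.

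Against 8.5 days, the changes were more negative at 5.5 days for AA465934 (-5.34), Abcg4 (-4.51), Zfp385c (-4.28), Gdf11 (-2.56), Stom (-1.33) and Neu2 (-1.08) and more positive for Dupd1 (3.52), Rhbdl1 (2.58) and Eif4e3 (1.24).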

How the results depend on the processing

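The number of genes called at 5.5 days was 47. It was 86 with library size alone (82 higher, 4 lower), 84 without a filter, 172 with DESeq2 on 24 libraries, 191 with DESeq2 on the 4 libraries (102 higher, 89 lower), 3 with edgeR on the 4 libraries and 6 with the 12 EDL libraries, and ranged from 3 to 153 when 1 library was left out. In the fit of the 16 libraries of 5.5 and 8.5 days, an alternative chosen after seeing the data, it was 19. DESeq2 size factors, a count of 10 in every library and the other thresholds gave 38 to 50. With the replicate block it was 44, of which 37 were among the 47, and the replicate numbers did not pair the libraries (correlation 0.0578).

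For the difference from 2.5 days, 902 became 1384 with DESeq2, 168 with the 12 EDL libraries and 176 to 1349 with 1 library left out. With the replicate block it was 791. For the difference from 8.5 days, 38 became 65 without a filter, 201 with DESeq2, 4 with the 12 EDL libraries, 15 with the 16 libraries and 6 to 206 with 1 library left out, and 44 with the replicate block. The median of the genes lower at both other days, -0.313, was -0.17 with library size alone, and that of the higher genes, 0.341, stayed between 0.328 and 0.484 in the fits with all 4 libraries. With 1 library left out they ranged from 0.173 to 0.458 and from -0.394 to -0.244. The cause of these changes was not tested.

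Of 1348 alternative values of 98 named genes, 274 lost and 59 gained the call and 11 changed sign. Without Cre+ replicate 2, Klf4 was -0.36, Cdkn1a -0.03, Abcg4 -0.28, Krt7 -0.51 and P2rx2 -0.07, and without Cre+ replicate 1 they were 1.52, 2.16, 0.41, 1.51 and 0.90. Abcg4 was -0.30 without Cre- replicate 2 and 0.73 without Cre- replicate 1. Msln was 0.01 without Cre- replicate 1 and -1.17 without Cre- replicate 2. Dkc1 was 0.07 with library size alone, 0.18 without Cre+ replicate 1, 0.00 without Cre- replicate 2 and -0.37 without Cre+ replicate 2. Cytl1 was -0.32 without Cre+ replicate 1 and 1.74 without Cre+ replicate 2.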
